A study of Mus musculus with 7 samples.

Results

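The genes described are Mitf, the transcription factor that directs melanocyte development, and 8 others known from pigment cells and the neural crest: Foxd3, Dct, Pmel, Tyrp1, Slc45a2, Kit, Kitl and Ednrb. All 9 were found by gene name among the 49315 genes of the count tables. They were picked because of their levels in the same libraries compared here, so their differences between the groups are given as values with standard errors (SE) and without a test. Oligodendroglia from mouse brain were compared between 4 libraries of genotype Sox9-tg, which overexpressed the transcription factor Sox9, and 3 control libraries of genotype Sox9-wt. The title of the series places the cells among early postnatal NG2 glia, the dividing progenitors from which oligodendrocytes form. The sources used here do not give the driver of the transgene, the strain, the age in days, the sex or any sorting or culture step. The labels call the replicates biological. They do not say whether each came from its own animal, and p-values set the difference between the groups against the spread between these libraries.

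MITF is a basic helix-loop-helix leucine zipper protein that, in melanocytes, binds E-box sequences near pigment genes and turns them on. In the neural crest lineage of the mouse, SOX10 and PAX3 activate Mitf, FOXD3 holds it back in other crest derivatives, and signals through the receptors KIT and EDNRB keep melanoblasts alive and migrating. Oligodendrocyte progenitors arise from the neural tube and not from the crest, but they share SOX10 and several other factors with crest cells.

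Library totals ran from 15768472 to 30507326 counts. In the Sox9-tg libraries Sox9 stood at 2207 to 3597 CPM (counts scaled to library size, with trimmed-mean-of-M-values factors), against 239 to 353 CPM in control libraries, so all 7 libraries matched their labels. The libraries held the defining markers of NG2 glia: Pdgfra stood at 1303 to 1538 CPM in Sox9-tg libraries and at 409 to 453 CPM in control libraries, and Cspg4, which encodes NG2 itself, averaged 593 ± 93.2 and 114 ± 17.9 CPM (SD, n = 4 and 3). They also held markers of other cells. Astrocyte markers summed to 1340 to 1900 CPM in Sox9-tg libraries and 2000 to 3610 CPM in control libraries. Markers of neurons and interneurons summed to 600 to 2060 and 1660 to 2890 CPM. The folds below therefore compare bulk RNA that may be of mixed cells, and the share of each cell type was not measured. The libraries numbered 2 held the most RNA of blood vessels and microglia in their groups. Endothelial and pericyte markers summed to 45.1 CPM in Sox9-tg library 2 and to 14 to 18.5 CPM in the other Sox9-tg libraries, against 181 CPM in control library 2 and 10.3 and 15.1 CPM in the other control libraries. Microglial markers summed to 32.9 to 207 CPM in Sox9-tg libraries and 67.4 to 502 CPM in control libraries, with library 2 the highest in each group. By edgeR, DESeq2 and limma-voom 0 of 7 tested endothelial and 0 of 6 microglial markers were called, with 2 and 1 at an unadjusted p under 0.05. Over all tested genes edgeR called 13.5%. The median log2 fold changes of these markers were -1.79 and -1.46, so the lack of calls does not show equal levels.

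Mitf was low in control cells and 12.1-fold higher in Sox9-tg cells. The 4 Sox9-tg libraries held 27.1, 38.3, 40.3 and 30.2 CPM of Mitf, against 1.57, 3.90 and 2.75 CPM in the control libraries. Every Sox9-tg library stood far above every control library, with replicates 2 and 3 the highest. The log2 fold change of Mitf was 3.60 (SE 0.30), and between 3.36 and 3.94 when any single library was left out. Mitf lies on chromosome 6 of GRCm38 (97807052 to 98021349, plus strand) and has 8 annotated transcripts, among them short forms that start far downstream at the promoter used by melanocytes. Counts per gene do not tell which of these transcripts the cells made. The gene also overlaps the pseudogene Gm15531 on the other strand, with no exon in common and 3 and 4 reads in all over the Sox9-tg and control libraries.

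Foxd3, a forkhead factor of premigratory neural crest, differed most of the 9. Sox9-tg libraries 1 to 4 held 22.8, 58.1, 70.0 and 52.0 CPM of Foxd3, against 0, 0.455 and 1.20 CPM in control libraries 1 to 3, where the counts were 0, 14 and 37 reads. Sox9-tg library 1 held the least of its group and still lay far above all controls. The log2 fold change was 6.35 (SE 0.68) with all libraries and 7.48 without control replicate 3, which holds most of the control reads, so the size of this difference is poorly fixed. With limma-voom it was 7.21. Foxd3 (chromosome 4, 99656299 to 99658622, plus strand) overlaps 1 annotated microRNA gene, Gm23366, listed at 0 in all libraries.

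The tyrosinase family, whose members Tyr, Tyrp1 and Dct encode enzymes of melanin synthesis, was represented by Dct alone. Dct, dopachrome tautomerase (chromosome 14, 118012790 to 118052244, minus strand), is also an early marker of melanoblasts. It stood at 17.96, 22.8, 24.7 and 19.5 CPM in Sox9-tg libraries, against 1.92, 2.28 and 1.81 CPM in control libraries. The groups were far apart and varied little within themselves: the log2 fold change was 3.40 (SE 0.19) and stayed between 3.33 and 3.51 with any library left out. Tyrp1 (chromosome 4, 80834123 to 80851719, plus strand) had 0 reads in all 4 Sox9-tg libraries, which allows up to 0.0399 CPM over the group, and 2 reads in all over the control libraries. Tyr, which encodes the rate-limiting enzyme tyrosinase and was singled out here after its values were seen, had 1 read in all over the Sox9-tg libraries and 1 over the control libraries. Both groups were thus at or under the floor of 3 reads for Tyr and Tyrp1, and no fold is given for either.

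The promoters of these 3 enzymes are shown because they share the short E-box CATGTG, a motif MITF is known to bind in pigment genes, while only Dct was detected above the floor. Each runs from 250 bases before to 50 bases after the RefSeq start site, 5′ to 3′ on the gene's own strand (RefSeq, GRCm38.p6). Capitals mark matches on either strand to CATGTG and to the SOX-type motifs ACAATG and ACAAAG.
Dct, chr14:118052197-118052496, minus strand: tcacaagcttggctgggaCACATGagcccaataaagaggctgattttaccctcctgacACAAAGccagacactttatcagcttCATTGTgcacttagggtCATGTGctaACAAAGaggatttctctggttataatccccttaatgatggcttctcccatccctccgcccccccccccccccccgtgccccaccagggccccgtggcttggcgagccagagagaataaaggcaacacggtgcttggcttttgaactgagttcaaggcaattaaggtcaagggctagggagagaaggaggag
Tyrp1, chr4:80833963-80834262, plus strand: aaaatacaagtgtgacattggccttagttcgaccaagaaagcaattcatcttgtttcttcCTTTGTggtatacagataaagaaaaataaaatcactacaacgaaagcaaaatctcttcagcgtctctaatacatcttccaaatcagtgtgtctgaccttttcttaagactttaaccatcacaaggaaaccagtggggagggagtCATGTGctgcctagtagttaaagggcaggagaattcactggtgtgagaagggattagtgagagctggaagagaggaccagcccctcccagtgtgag
Tyr, chr7:87493463-87493762, minus strand: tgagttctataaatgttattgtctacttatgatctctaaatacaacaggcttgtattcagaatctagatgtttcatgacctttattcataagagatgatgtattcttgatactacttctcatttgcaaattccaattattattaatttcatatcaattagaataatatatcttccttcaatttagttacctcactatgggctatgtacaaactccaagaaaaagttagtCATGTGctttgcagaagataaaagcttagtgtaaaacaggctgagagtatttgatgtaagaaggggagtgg
The Dct window held CATGTG 150 bases upstream of the start and, on the other strand, 232 bases upstream, besides ACAATG on the other strand at 167 bases and ACAAAG at 192 and 141 bases. The Tyrp1 window held CATGTG 46 bases and ACAAAG, on the other strand, 190 bases upstream, and the Tyr window held CATGTG 21 bases upstream. Matches to CATGTG stood in 14.2% of the 32851 promoter windows of that table, matches to ACAATG in 12.6% and to ACAAAG in 18.7%. The E-box CACGTG, in 7.15% of windows, was found once, in the Foxd3 window at 217 bases upstream. Promoter windows were matched for 7 of the 9 genes, and those of Mitf (3 windows), Kit, Kitl and Ednrb, like that of Pdgfra, held none of the 4 motifs. A match says only that these letters are there, and binding was not measured.

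Pmel and Slc45a2 encode proteins of the melanosome, the organelle in which pigment forms. Pmel makes the protein of its inner fibrils and lies on chromosome 10 (128704195 to 128720238, plus strand). Its level was 14.1, 22.4, 16.7 and 17.3 CPM in Sox9-tg libraries, against 1.05, 2.44 and 1.36 CPM in control libraries. All Sox9-tg libraries lay above all control libraries, and in each group library 2 was the highest. The log2 fold change was 3.42 (SE 0.32). The exons of Pmel share 105 bases with those of Dgka and 34 bases with those of Cdk2, both on the opposite strand. Neither neighbour passed the test: Dgka stood at 13.3 ± 0.695 and 12.5 ± 0.803 CPM and Cdk2 at 46.0 ± 2.80 and 49.9 ± 2.5 CPM (SD, 4 Sox9-tg and 3 control libraries). Slc45a2 (chromosome 15, 11000721 to 11029233, plus strand), a melanosomal transporter, was scarce throughout, with 65 reads in all over the Sox9-tg libraries against 6 over the control libraries. Per library this came to 1.21, 0.499, 1.03 and 0.781 CPM in Sox9-tg cells, against 0, 0.130 and 0.0647 CPM in control cells. Its log2 fold change of 3.49 (SE 0.68) was 4.28 without control replicate 2, which held 4 of the 6 control reads.

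**Figure D1:**
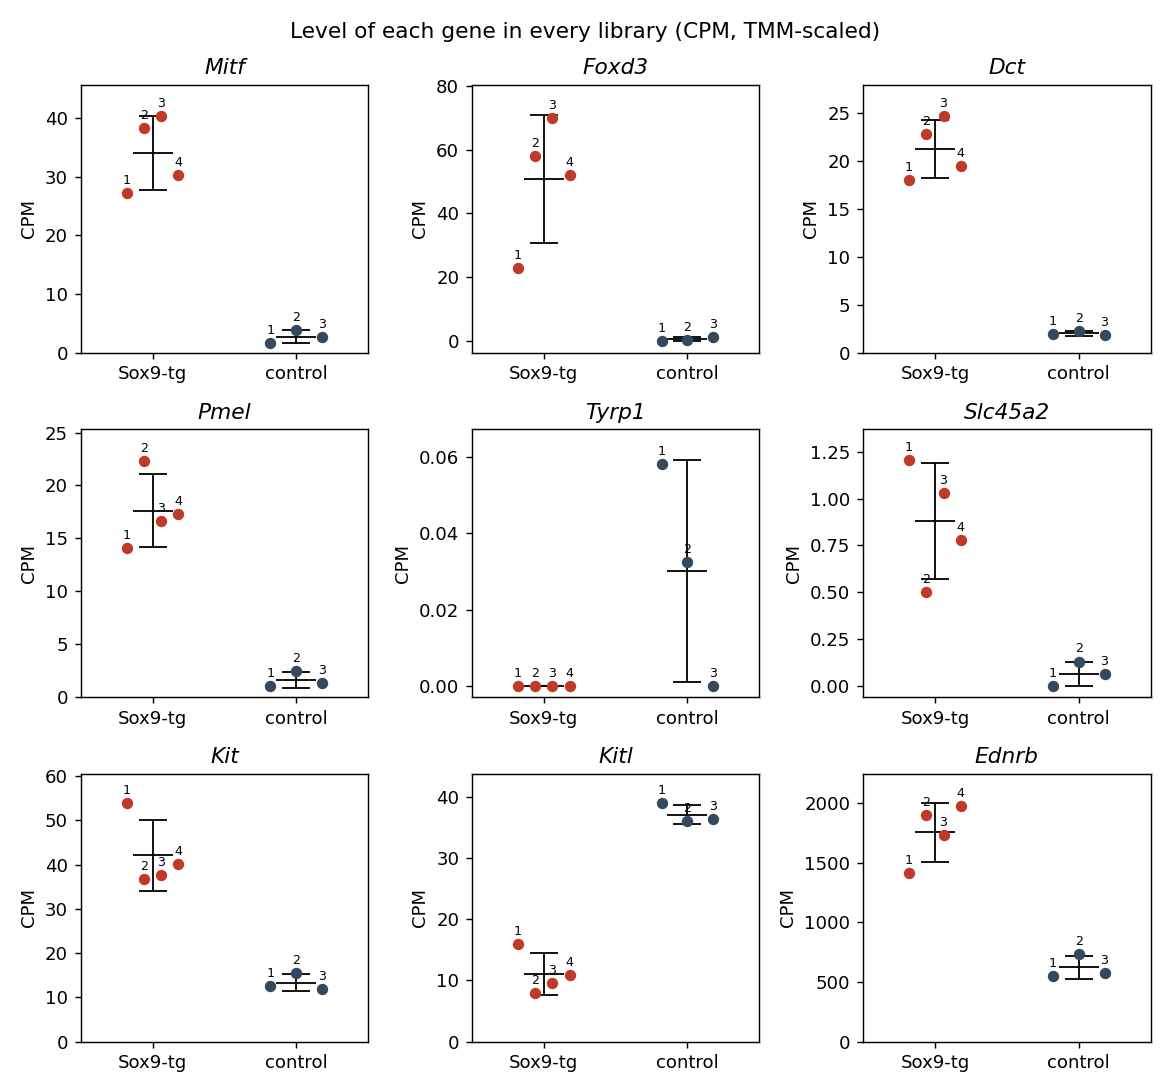
Level of each of the 9 genes in CPM (vertical axes, linear, scaled separately) in 4 Sox9-tg libraries (left, red) and 3 control libraries (right, dark blue). Points are libraries with their replicate number, and bars are the mean and SD. Mitf, Foxd3, Dct, Pmel, Slc45a2, Kit and Ednrb stood higher in every Sox9-tg library than in any control library, Kitl lower, and Tyrp1 stayed at 2 reads or fewer in all.

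The receptors and the ligand went different ways. Kit, the receptor tyrosine kinase that melanoblasts need for survival (chromosome 5, 75574916 to 75656722, plus strand), stood at 53.9, 36.8, 37.6 and 40.3 CPM in Sox9-tg libraries, against 12.6, 15.5 and 11.97 CPM in control libraries. Its log2 fold change was 1.66 (SE 0.18), and here Sox9-tg library 1, the lowest for Mitf, Dct, Pmel, Foxd3 and Ednrb, was the highest. Kitl, which encodes the KIT ligand (chromosome 10, 100015630 to 100100416, plus strand), was the only one of the 9 at a lower level in every Sox9-tg library. It stood at 15.96, 7.93, 9.53 and 10.9 CPM in Sox9-tg libraries, against 38.9, 36.1 and 36.3 CPM in control libraries. The log2 fold change was -1.74 (SE 0.22). Of 9 markers of neurons and interneurons, all tested, 3 also fell (Rbfox3, Syt1 and Gad2) and none rose. Gad2 missed the threshold without control replicate 3 (adjusted p = 0.0544). Calls made up 33.3% of these markers, against 13.5% of all tested genes. Their sums ran from 600 to 2060 CPM in Sox9-tg libraries, with library 1 the highest, and from 1660 to 2890 CPM in control libraries. Their part in the level of Kitl was not tested. In bulk RNA, fewer cells of a type and less RNA per cell cannot be told apart.

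Ednrb, the endothelin receptor of melanoblasts and enteric crest cells and a gene also active in many glia (chromosome 14, 103814625 to 103844402, minus strand), was by far the most abundant of the 9. It stood at 1415, 1902, 1730 and 1975 CPM in Sox9-tg libraries, against 551, 736 and 579 CPM in control libraries. The groups did not overlap, and the log2 fold change was 1.497 (SE 0.18). The ligands were scarce in both groups. Edn3, the ligand of EDNRB in the crest, had 3 reads in all over the Sox9-tg libraries and 22 over the control libraries, and Edn1 had 10 and 34 reads.

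**Figure D2:**
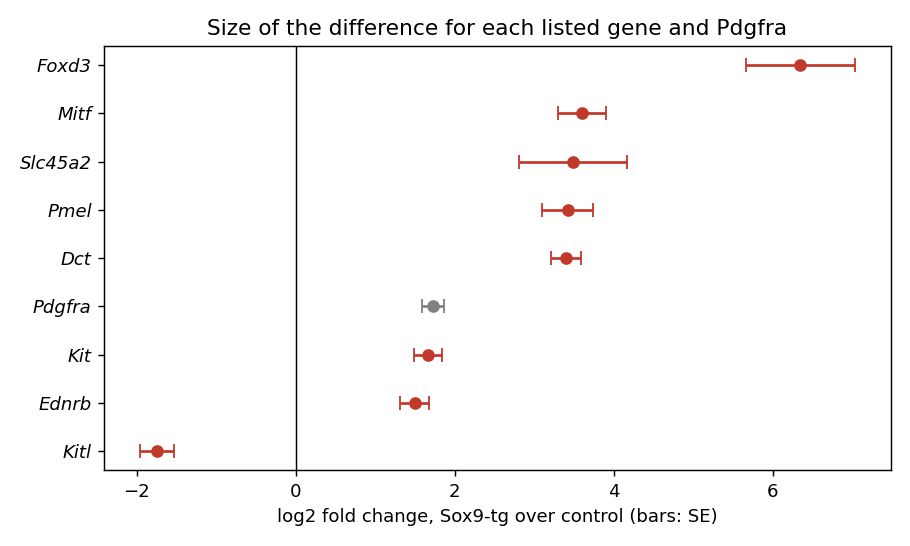
Log2 fold change of Sox9-tg over control libraries (horizontal axis) for 8 of the 9 genes and, in grey, Pdgfra; bars are SE from the edgeR fit. Foxd3 stands apart at 6.35, Mitf, Slc45a2, Pmel and Dct lie between 3.40 and 3.60, Kit and Ednrb lie near Pdgfra at 1.72, and Kitl is below 0.

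Of the 9 genes, 8 passed the filter on low counts. Slc45a2 and Foxd3 passed it through their Sox9-tg libraries, since 0 and 1 of the 3 control libraries reached its limit of 0.481 CPM, so a difference was built into their passing. Tyrp1 did not pass. In the 8 that passed, the groups did not overlap: 7 lay higher and 1 lower in Sox9-tg libraries. Over all 16616 tested genes 24.5% did not overlap, of which those higher made up 13.1% of all tested genes and those lower 11.5%. As the genes were chosen on these values, nothing is read from this count.

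Levels of different genes can be compared only per length. RPKM values (CPM per kilobase of annotated exon) were therefore set beside those of Pdgfra, the receptor that defines NG2 glia. Mitf reached 5.48 ± 1.02 RPKM in Sox9-tg libraries, against 0.442 ± 0.188 RPKM in control libraries (SD, n = 4 and 3). This was 3.88% ± 0.938 of the level of Pdgfra in Sox9-tg libraries and 1.01% ± 0.409 in control libraries. By its mean level per length Mitf ranked above 52.8% of the 16569 tested genes with a length in Sox9-tg libraries, and above 11.8% in control libraries. Foxd3 went further, to 15.5% ± 6.53 of the level of Pdgfra in Sox9-tg libraries against 0.529% ± 0.574 in control libraries. It ranked above 85.2% of genes in Sox9-tg libraries and above 5.58% in control libraries. Pmel reached 5.44% ± 1.44 of the level of Pdgfra in Sox9-tg libraries, against 1.62% ± 0.707 in control libraries, and Dct 2.54% ± 0.500 against 0.787% ± 0.101. Slc45a2 stayed at 0.205% ± 0.0671 in Sox9-tg libraries and 0.0492% ± 0.0498 in control libraries. These pigment genes were thus at a few percent of Pdgfra or less even in Sox9-tg cells.

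Kit and Ednrb had fold changes close to that of Pdgfra. Kit held 4.10, 3.18, 3.00 and 2.95% of the level per length of Pdgfra in Sox9-tg libraries, against 3.46, 3.97 and 2.97% in control libraries, and these ranges overlap. The log2 fold change of Kit minus that of Pdgfra was -0.07. Ednrb was above Pdgfra in every library, at 225 to 343% of its level in Sox9-tg libraries and 301 to 394% in control libraries, and its log2 fold change minus that of Pdgfra was -0.23. The same difference was 1.87 for Mitf, 1.67 for Dct, 1.69 for Pmel, 1.76 for Slc45a2 and 4.62 for Foxd3. Kitl held 1.30% ± 0.359 of the level of Pdgfra in Sox9-tg libraries and 14.6% ± 1.39 in control libraries.

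The order of the 9 genes per length changed with the genotype. In Sox9-tg libraries it ran Ednrb, Foxd3, Pmel, Mitf, Kit, Dct, Kitl, Slc45a2 and Tyrp1, where the ranges of Pmel and Mitf, of Mitf and Kit, and of Kit and Dct overlapped. In control libraries it ran Ednrb, Kitl, Kit, Pmel, Mitf, Dct, Foxd3, Slc45a2 and Tyrp1, and from Pmel down each gene's range overlapped that of the next. Kitl was thus second in control libraries and seventh in Sox9-tg libraries.

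**Figure D3:**
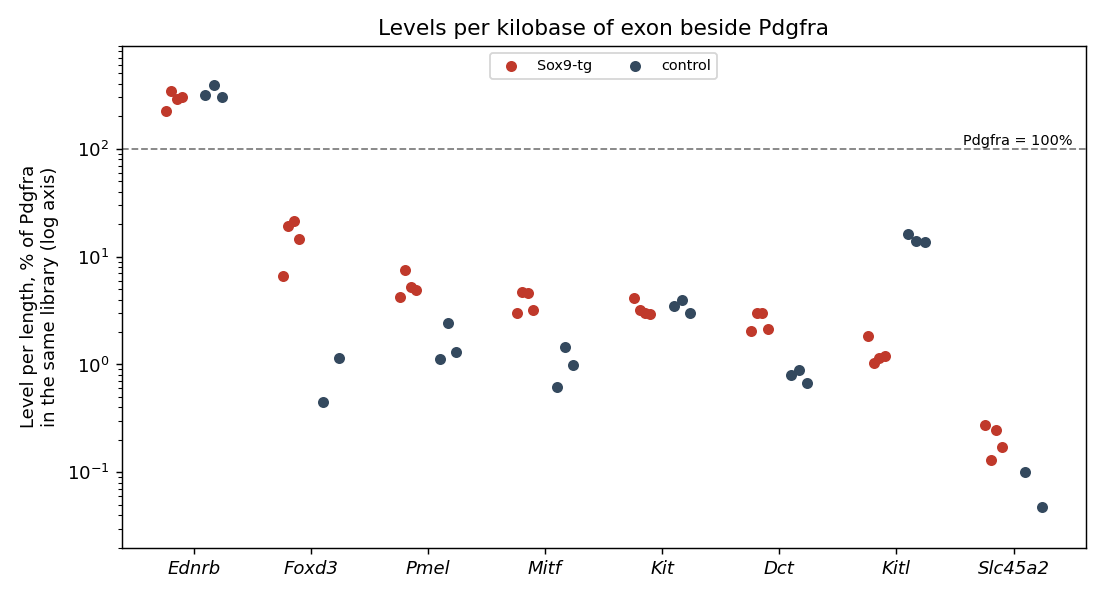
Level per kilobase of exon of each gene as a percent of that of Pdgfra in the same library (vertical axis, log scale) in Sox9-tg (red, left) and control libraries (dark blue, right); each point is a library, and libraries with 0 reads (control library 1 for Foxd3 and Slc45a2) and the gene Tyrp1 are not drawn. The ranges of the groups overlap for Kit and Ednrb, and do not for the other 6 genes.

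Within the groups, the libraries that were high in Mitf tended to be high in Pmel and Foxd3. After subtracting each group's mean log2 CPM, Pearson's r with Mitf over the 7 libraries was 0.87 for Pmel, 0.77 for Foxd3, 0.69 for Dct, 0.68 for Ednrb and 0.50 for Slc45a2, against -0.01 for Kit and -0.50 for Kitl. It was 0.80 for Sox9 and 0.79 for Sox10. The genes most like Mitf by this measure were Bcl2l2 (r = 0.99), Usp8 (0.99), Lrrc4 (0.99), Zbtb7a (0.99) and Tbkbp1 (0.98), and 271 of 11741 genes with a mean of at least 5 CPM reached 0.9. With so few libraries, which also share depth and composition, these values only describe them.

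Few other genes of the pigment cell were called by edgeR. Of 26 further pigment-cell genes, 22 were tested, 3 rose (Tbx2, Mlph and Mcam), 1 fell (Slc7a11) and 18 did not pass, with a median log2 fold change of 0.10. These calls made up 18.2% of those tested, against 13.5% of all tested genes. DESeq2 called 6 and limma-voom 4, and 7 had an unadjusted p under 0.05 by edgeR. Over all tested genes 7.69% were called higher, 5.86% lower and 13.5% in either direction by edgeR's quasi-likelihood test, and the median was -0.01. Tbx2, a T-box repressor of melanocytes and other tissues, rose to 73.3 ± 25 CPM in Sox9-tg libraries, against 1.42 ± 0.796 CPM in control libraries (adjusted p = 0.000236). Mlph, which encodes melanophilin and links melanosomes to their motor, rose to 2.98 ± 1.58 CPM, against 0.566 ± 0.245 CPM in control libraries (log2 fold change 2.37, SE 0.50, adjusted p = 0.0158). Sox9-tg library 2 stood alone at 5.34 CPM of Mlph, and the gene missed the threshold when control replicate 1 (adjusted p = 0.0607) or 3 (0.0765) was left out. Mcam, an adhesion molecule of melanoma and of vessel cells, had a log2 fold change of 1.69, or 2.295 without control replicate 2, and missed the threshold when control replicate 3 was left out (adjusted p = 0.064). The cystine transporter gene Slc7a11, which affects the colour of mouse pigment, fell to 35.1 ± 5.88 CPM, against 80.9 ± 16.5 CPM in control libraries (adjusted p = 0.00297).

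Several defining genes of mature melanocytes had few reads and did not enter the test, and are given after their values were seen. Mlana, which encodes a melanosomal antigen, had 1 read in all over the Sox9-tg libraries and 4 over the control libraries. Gpr143, the ocular albinism receptor gene, had 5 reads over the Sox9-tg libraries and 1 over the control libraries, and Oca2, a melanosomal channel gene, had 52 and 15. Oca2 stood higher in every Sox9-tg library (0.342 to 1.30 CPM) than in any control library (0.116 to 0.260 CPM). Slc24a5, a cation exchanger of pigment organelles, was tested and did not pass. It stood at 2.68 CPM in Sox9-tg library 1 and at 0.998 to 1.07 CPM in the other 3 Sox9-tg libraries, against 1.495 to 2.09 CPM in control libraries. None of the 19 general genes for making lysosome-related organelles, such as Hps1 and the Bloc1s genes, was called by edgeR, DESeq2 or limma-voom, with 2 at an unadjusted p under 0.05. Over all tested genes edgeR called 13.5%, and with so few genes in the list nothing is read from this number. Of the relatives of Mitf, Tfe3 stood at 47.8 ± 5.63 CPM in Sox9-tg libraries and 43.5 ± 3.58 CPM in control libraries. Tfeb stood at 21.7 ± 12.3 and 7.32 ± 4.30 CPM in Sox9-tg and control libraries (log2 fold change 1.56, SE 0.53, adjusted p = 0.0924), and Tfec had 9 and 13 reads and was not tested. Of the 2 tested, edgeR and limma-voom called 0 and DESeq2 called 1, with 1 at an unadjusted p under 0.05.

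Of 10 factors known to act upstream of Mitf in the crest or the eye, 9 were tested, 2 rose and 1 fell. These calls made up 33.3% of those tested, against 13.5% of all tested genes. Sox10 rose to 758 ± 224 CPM in Sox9-tg libraries, against 141 ± 33.2 CPM in control libraries (log2 fold change 2.43, SE 0.29, adjusted p = 0.00122). Pax3, the partner of SOX10 at the Mitf promoter of melanocytes, was scarce in both groups, at 1.00 ± 0.434 CPM in Sox9-tg libraries and 1.05 ± 0.219 CPM in control libraries, with a log2 fold change of -0.05 (SE 0.45). Zeb2, a repressor needed in crest and in oligodendrocytes, rose by a log2 fold change of 0.55 (adjusted p = 0.0497), a call that was lost under upper-quartile factors (0.0585), under total counts (0.0551), without the filter (0.0529) with each library left out in turn (0.0563 to 0.142) and without both libraries numbered 2 (0.13). Pax6, an eye and forebrain factor, fell to 63.1 ± 8.63 CPM, against 132 ± 12.7 CPM in control libraries (adjusted p = 0.00159).

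Neural crest genes split. Of 30 further genes of the crest, 26 were tested, 7 rose, 7 fell and 12 did not pass, and the median log2 fold change was 0.21. Calls made up 53.8% of those tested, against 13.5% of all tested genes. Those that rose with the smallest p were Erbb3, the neuregulin receptor gene of crest-derived glia (89.5 ± 27.5 CPM in Sox9-tg libraries, against 2.45 ± 0.512 CPM in control libraries, adjusted p = 0.000118), Sox10, Ets1 (log2 fold change 1.20, adjusted p = 0.00304) and Myc (1.73, adjusted p = 0.00727). Those that fell included Id1 (-1.41, adjusted p = 0.00223), Rxrg (-1.47, adjusted p = 0.00245) and the neural plate border factor Zic2 (-0.87, adjusted p = 0.0163). Zic2 missed the threshold when Sox9-tg replicate 4 (adjusted p = 0.0562) or control replicates 1 (0.0534) or 3 (0.075) were left out. The premigratory crest factor Tfap2a had 16 reads in all over the Sox9-tg libraries and 9 over the control libraries and was not tested. The 7 genes that fell numbered 3 without Sox9-tg replicate 4 or control replicate 3 and 4 without Sox9-tg replicate 3 or control replicate 1, while the 7 that rose numbered 4 without control replicate 3. Sox10, Erbb3 and other members of this list are also genes of oligodendrocyte progenitors. Of 15 NG2 glia markers, a list that also holds Sox10 and Pdgfra, 13 rose and 0 fell by edgeR (86.7%, against 13.5% of all tested genes). Among them were Matn4, Gpr17 (2889 ± 1050 CPM in Sox9-tg libraries, against 186 ± 62.4 CPM in control libraries) and Cspg4. DESeq2 and limma-voom also called 13, the number at an unadjusted p under 0.05. These lists, like the others here, were chosen with earlier results of these data known, so their shares only describe them. The part of progenitor genes in the crest list was not tested.

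**Figure D4:**
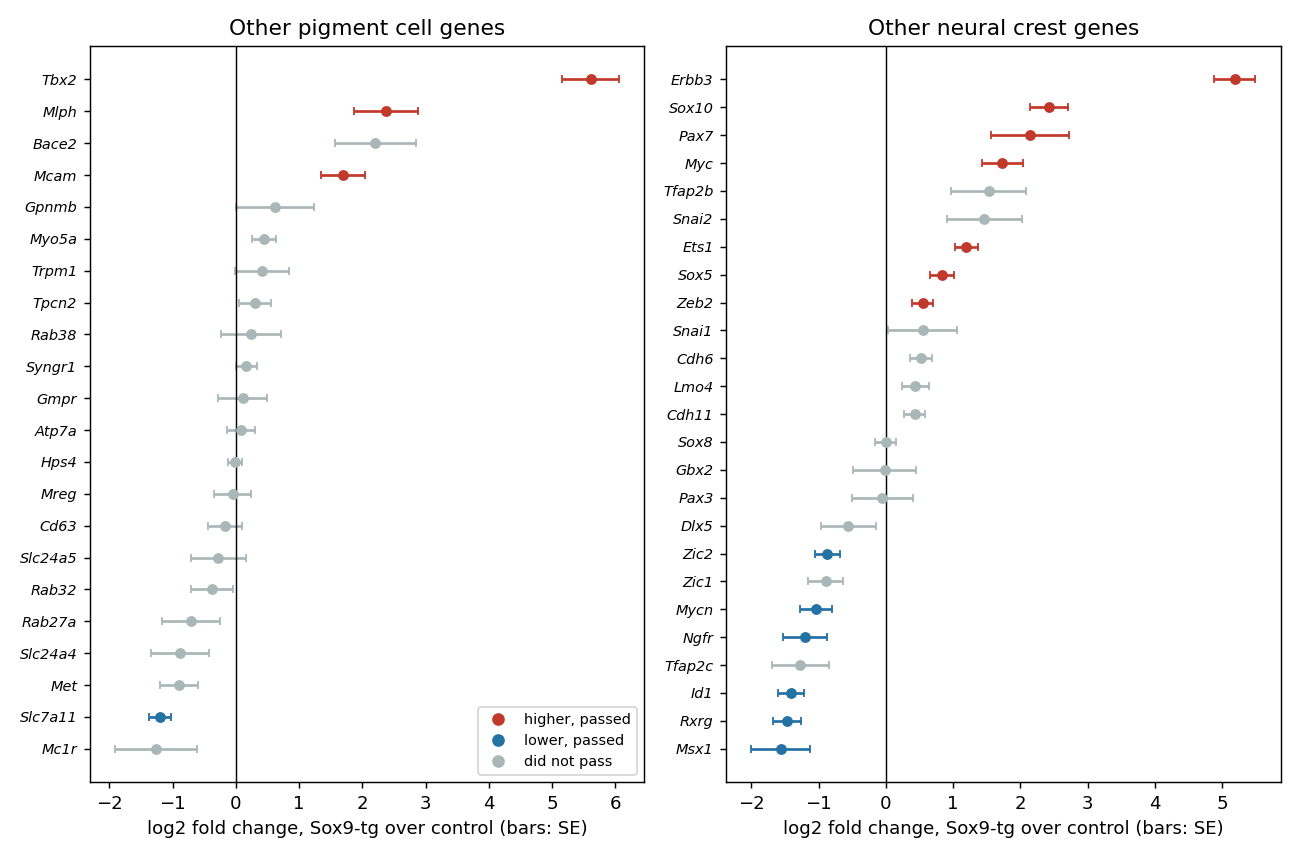
Log2 fold change of Sox9-tg over control libraries (horizontal axes; bars are SE) for the 22 tested further pigment-cell genes (left) and 25 of the 26 tested further neural crest genes (right), with genes past the threshold in red (higher) or blue (lower) and the others in grey. Among pigment-cell genes 3 passed as higher and 1 as lower, and among the neural crest genes drawn 7 passed as higher and 6 as lower.

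In the pathways of KIT, the endothelins and the melanocortins, 15 of 19 listed genes were tested, 2 rose and none fell. These calls made up 13.3% of those tested, near the 13.5% of all tested genes, so nothing is read from their number. Shc4, an adaptor of receptor kinases that is expressed in melanoma, rose to 129 ± 18.9 CPM in Sox9-tg libraries, against 22.9 ± 2.32 CPM in control libraries (log2 fold change 2.48, SE 0.15, adjusted p = 0.000118). Ece1, which encodes the enzyme that matures endothelins, rose by a log2 fold change of 0.47 (adjusted p = 0.0216), a call lost without Sox9-tg replicates 3 (0.0749) or 4 (0.0701) or control replicates 1 (0.0698) or 3 (0.139). Mc1r, the melanocortin receptor gene of melanocytes, did not pass. It stood at 1.10 CPM in Sox9-tg library 1 and at 0.258 to 0.299 CPM in the other 3 Sox9-tg libraries, against 0.455 to 1.80 CPM in control libraries.

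Kit lies next to Pdgfra on chromosome 5, with 377 kilobases and no protein-coding gene between them. The genes around the pair did not share a direction. Of 9 listed neighbours, which include Pdgfra itself and were all tested, 3 rose and 1 fell. These calls made up 44.4% of the list, against 13.5% of all tested genes. Lnx1 rose to 66.1 ± 10.2 CPM in Sox9-tg libraries, against 23.1 ± 4.26 CPM in control libraries (adjusted p = 0.0011). Fip1l1 rose by a log2 fold change of 0.55 (adjusted p = 0.0123). The call of Fip1l1 was lost without Sox9-tg replicate 4 (0.0503) or control replicates 1 (0.0529), 2 (0.0505) or 3 (0.0653). Gsx2, a homeobox factor of the ventral forebrain, fell to 4.92 ± 1.23 CPM, against 17.4 ± 2.15 CPM in control libraries (adjusted p = 0.00153). Kdr, the third receptor of this cluster and a gene of vessels, varied too much to judge, at 6.62 to 12.3 CPM in Sox9-tg libraries and 1.13 to 30.2 CPM in control libraries, the last in library 2.

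Markers of other cells that make pigment or use Mitf or Kit were examined in the same libraries. Of 10 markers of the retinal pigment epithelium, 7 were tested, 3 rose (Rgr, Rlbp1 and Ttr) and 1 fell (Rdh5). Calls made up 57.1% of those tested, against 13.5% of all tested genes. The 10 markers summed to 508 to 654 CPM in Sox9-tg libraries and 220 to 259 CPM in control libraries. Most of this sum was Rlbp1, which other glia also express, at 560 ± 76.7 and 202 ± 10.4 CPM in Sox9-tg and control libraries. The defining enzyme gene Rpe65 had 1 read in all over the Sox9-tg libraries and 1 over the control libraries. Rgr, an opsin gene, rose to 5.67 ± 0.947 CPM, against 0.220 ± 0.0432 CPM in control libraries (adjusted p = 0.000181). Ttr lost its call under 8 of the 15 alternatives and Rdh5 under 6, with adjusted p of 0.0566 to 0.109 for Rdh5 and 0.0582 to 0.174 for Ttr.

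Mast cell markers summed to 2.2 to 3.74 CPM in Sox9-tg libraries and 4.72 to 10.3 CPM in control libraries. Most of this sum in each library came from a single gene, the only one tested. That gene was not called by edgeR or limma-voom and was called by DESeq2, with an unadjusted p under 0.05. Among them Fcer1a and Ms4a2 were at 0 in all libraries, and Cpa3 and Cma1 were at 0 in all Sox9-tg libraries. Of 11 Schwann cell markers, 7 were tested, 1 rose (Cdh19, log2 fold change 2.25, adjusted p = 0.0268) and 2 fell (Pou3f1 and Drp2). Calls made up 42.9% of those tested, against 13.5% of all tested genes. The 11 markers summed to 63.6 to 99.3 CPM in Sox9-tg libraries and 95.5 to 106 CPM in control libraries. Cdh19 stood alone in Sox9-tg library 2 at 6.48 CPM, and its call was lost without that library (adjusted p = 0.0503), Sox9-tg replicate 3 (0.052), control replicate 3 (0.059) or both libraries numbered 2 (0.0755). Of 11 markers of meningeal fibroblasts, where brain melanocytes also lie, 8 were tested, 1 rose (Lum) and 1 fell (Islr). Calls made up 25% of those tested, against 13.5% of all tested genes. The 11 markers summed to 17.5 to 60.5 CPM in Sox9-tg libraries and 26.7 to 101 CPM in control libraries. Lum had a log2 fold change of 4.61 (adjusted p = 0.015), 6.99 when control replicate 2 was left out, and did not pass without control replicate 3 (0.069). The log2 fold changes of Mitf, Dct and Pmel without both libraries numbered 2 were 3.88, 3.49 and 3.72. Of the astrocyte markers, 4 of 7 fell (Aqp4, Agt, Slc1a2 and Gja1) and none rose, at 1340 to 1900 CPM in Sox9-tg libraries and 2000 to 3610 CPM in control libraries in sum. These calls made up 57.1% of those tested, against 13.5% of all tested genes. Gja1 missed the threshold under 6 alternatives (adjusted p 0.0512 to 0.128), and the part of these markers in the levels of the listed genes was not tested.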

How the data were processed

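RNA of oligodendroglia was sequenced in 4 Sox9-tg and 3 control libraries. The authors deposited, per library, raw counts of reads for every gene. The submitters' processing notes name the build GRCm38 and the tools STAR 2.5.2b, Subread 1.5.2 with featureCounts, Trimmomatic 0.36, DESeq and DESeq2. For their roles, the annotation release, strand and reads with several matches the answer is not given in the sources used here, so overlapping and antisense genes cannot be told apart with certainty.

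Here edgeR's filterByExpr (minimum count 10, minimum total 15) left 16616 of 49315 genes, and removed genes held 0.08 to 0.36% of each library's counts. TMM factors ran from 0.965 to 1.05. Genes were tested two-sided by quasi-likelihood in edgeR 4.0.16 under R 4.3.3, on genotype alone, and p-values were adjusted by Benjamini-Hochberg over 16616 genes (threshold 0.05); SE is the log2 fold change divided by the square root of F. The steps were tested on simulated data. DESeq2 1.42.0, limma-voom (limma 3.58.1), other scalings, no filter, each library left out and a replicate block were alternatives. A count of 3 reads was the floor, 0.097 to 0.193 CPM per library, for counting error only. Exon lengths (union of exons), coordinates and overlaps came from GENCODE M21 (GRCm38), which held 49056 of the gene IDs.

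The 9 genes and the 16 gene lists were chosen with earlier results of these data known. From each list the text names every called gene where 4 or fewer were called in a direction and otherwise the 4 with the smallest p; genes named beyond this rule (Tyr, Mlana, Gpr143, Oca2, Slc24a5, Mc1r, Kdr, Edn1, Edn3, Pax3, Tfap2a, Tfe3, Tfeb, Tfec, Rpe65, Cpa3, Cma1, Fcer1a and Ms4a2) were chosen after their values were seen. Values of 2 single genes of these lists are not reported here, though the counts and sums of their lists include them. Replicate numbers were not taken as pairs, since the labels do not state a pairing. Same-numbered libraries deviated together with r of 0.317, 0.613 and 0.07 for numbers 1, 2 and 3. Sox9-tg libraries 1 and 2 correlated best with the control library of their number. Sox9-tg library 3 correlated slightly more with control library 1 (0.086). Whether the libraries were paired is thus not known, and a fit with a replicate block is among the alternatives.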

Additional observations from a re-analysis of the deposited data

Results flagged for a closer look

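In some genes that the text names, 1 Sox9-tg library stood apart from the other 3 by a gap that takes up most of the group's range (above Dixon's 95% limit). Library 2 did so for Mlph, at 5.34 CPM against 2.00 to 2.38 CPM (a gap of 0.884 of the range), and for Cdh19, at 6.48 CPM against 2.88 to 3.29 CPM (0.887). Library 1 was high for Slc24a5, at 2.68 CPM against 0.998 to 1.07 CPM (0.955), and for Mc1r, at 1.10 CPM against 0.258 to 0.299 CPM (0.951). Library 1 was low for Tfe3, at 39.4 CPM against 50.1 to 51.4 CPM (0.893), and for Dgka, at 12.3 CPM against 13.6 to 13.8 CPM (0.836). In 4 genes too scarce to be tested all reads of the group lay in 1 library (a gap of 1): Tyr and Rpe65, with 1 read each in library 1, Mlana, with 1 read in library 4, and Tfec, with 9 reads in library 2. None of the 9 listed genes was among these 10 of the 65 groups examined. Chance alone marks about 1 in 20 groups where values are continuous and normally spread. That rate does not hold for the 4 scarce genes, where 0 reads in all libraries but 1 fix the gap at 1, so the number marked is not compared with it. Sox9-tg library 2 also held the highest sum of endothelial, microglial and meningeal markers in its group, and the part of these in Mlph and Cdh19 was not tested.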

How the results depend on the processing

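The 8 listed genes with a fold change kept their direction under all 15 alternatives that gave a value; Slc45a2 gave none without Sox9-tg replicates 1, 3 or 4, where it fell below the filter. Of 117 such values 2 moved by more than the spread between replicates, both for Slc45a2 (4.28 without control replicate 2 and 4.47 without both libraries numbered 2, an alternative added after seeing the data). The number of genes called ran from 965 to 3169 of the tested genes when a library was left out, and the number of called pigment-cell and neural crest genes from 9 to 19, against 2251 and 18 with all libraries; the first moved by more than 1.5 times without Sox9-tg replicates 3 or 4 or control replicates 1 or 3, and the second without control replicate 3. Upper-quartile factors gave 1113 genes higher and 1112 lower, and total counts 1117 and 1087, so the larger number of higher calls (1278 against 973) nearly disappeared under these scalings. The replicate block leaves Sox9-tg replicate 4 without a control of its number, so the genotype difference in that fit rests on the libraries numbered 1 to 3. Each library did not correlate best with its own number in every case. With the block, 3109 genes were called (1600 higher and 1509 lower, against 1278 and 973 without it). Of the pigment-cell and neural crest genes 23 were called, 5 of them higher pigment-cell genes against 3. Without both libraries numbered 2 these were 1990 and 16. No named list gene changed sign, and 12 of 38 lost a call under some alternative (51 of 570 values). With the longest transcript as length, the level of Pmel was 3.99% of that of Pdgfra in Sox9-tg libraries and that of Ednrb 205%, against 239% in control libraries. Foxd3 was at 10.6% in Sox9-tg libraries and Kitl at 10.4% in control libraries. By this length Kit (3.83%) stood above Mitf (3.36%) in Sox9-tg libraries, and Dct (0.914%) above Mitf (0.877%) in control libraries. The order of these close genes thus depends on the length used. In the last 150 bases of the promoter windows CATGTG was found in 6.76%, CACGTG in 4.35%, ACAATG in 6.33% and ACAAAG in 9.19%. Depth limits Slc45a2, Tyrp1, Tyr and the control level of Foxd3, which rest on few reads.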
